A study of Mus musculus with 10 samples.

Results

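RNA polymerase I transcribes the ribosomal RNA genes. The 10 genes described here encode parts of this machinery and were chosen by name: the subunit genes Polr1a, Polr1b, Polr1c and Polr1e, the initiation factor genes Ubtf, Rrn3, Taf1a, Taf1c and Taf1d, and Tcof1. They are 10 of 50559 genes in the count files, and all 10 were among the 29952 genes that passed the filter on low counts. RNA was sequenced from formalin-fixed paraffin-embedded (FFPE) mouse tissue in 10 libraries: 4 MYC/SMARCA4 tumors, 3 sonic hedgehog medulloblastomas (SHH MB) and 3 P7 cerebella.

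For MYC/SMARCA4 tumors, granule cell precursors (GCPs) were taken from Math1-creERT2::Smarca4fl/fl pups after tamoxifen, transduced with a lentivirus carrying murine Myc and GFP behind a CMV promoter, and transplanted without sorting into the cerebella of CD1nu/nu mice, which lack a thymus. The hosts were 112, 96, 89 and 79 days old for tumors 1 to 4. The P7 cerebella were whole organs of Math1-creERT2::Smarca4fl/fl mice, given 0.4 mg tamoxifen at postnatal day 3, so these controls carry the Smarca4 deletion as well. Math1 drives Cre in the granule cell lineage, and other cells of these cerebella keep the gene. The paper found loss of SMARCA4 protein in only part of the GCPs isolated after this tamoxifen dose. In the tumors it reports the loss in all tumor cells by immunostaining. SHH MB came from Math1-cre::Smofl/wt mice, with a labelled age of 7 days and no treatment label. A tumor punch takes every cell in its area, host cells included, and in such bulk samples fewer cells of a type and less RNA per cell cannot be told apart.

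In the nucleolus, RNA polymerase I reads the ribosomal DNA repeats into a long precursor, from which the 18S, 5.8S and 28S rRNAs are cut. UBF, the product of Ubtf, coats the repeats and their promoter. Selectivity factor SL1, which holds TBP and the TAF1 proteins, sits on the promoter, and RRN3 joins the polymerase to SL1. MYC is a well-known regulator of ribosome production in growing cells, and granule cell precursors are among the most rapidly dividing cells of the early postnatal cerebellum. Ribosomal RNA was depleted before sequencing, so the product of the polymerase was not measured here, only the mRNAs of its machinery.

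The comparison of tumors with P7 cerebella asks which of these mRNAs differ between the tumors and the tissue their founder cells came from. The comparison with SHH MB sets them beside another medulloblastoma that arises in the granule lineage. In both comparisons the MYC/SMARCA4 tumors came from mice with older labelled ages and grew in CD1nu/nu hosts. Age and host therefore cannot be told apart from the tumor itself.

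The sequence CACGTG is the canonical E-box, the motif that MYC binds together with MAX, and copies near the start sites are shown because Myc is the gene that was added. It reads the same on both strands. In the 300 bases from 250 before to 50 after the start of the canonical transcript, 1 of 10 genes held a copy, Rrn3 with 2. This window held a copy in 7.81% of 21770 protein-coding promoters. Within 1000 bases on either side of the start, 5 of 10 genes held at least 1 copy, against 27.9% of all promoters. The windows below are 30 bases of the GRCm39 genome, read 5′ to 3′ on the strand of the gene, with the motif in capitals.
Rrn3, 206 bases upstream of the start, chr16:13598336-13598365, plus strand: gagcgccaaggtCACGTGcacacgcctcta
Rrn3, 39 bases upstream, chr16:13598503-13598532, plus strand: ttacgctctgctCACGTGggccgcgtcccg
Polr1b, 227 bases downstream, in exon 1, chr2:128943118-128943147, plus strand: ctgacgcgggcgCACGTGgactccttcaac
Taf1c, 139 bases downstream, in intron 1, chr8:120331829-120331858, minus strand: gaatgctgagagCACGTGgcagaccacgtg
Taf1d, 375 bases downstream, in intron 1, chr9:15217873-15217902, plus strand: gacgcagctcacCACGTGgcctccaaagct
Taf1d, 696 bases downstream, in intron 1, chr9:15218194-15218223, plus strand: atatttctacacCACGTGcacgcagtgctc
A second copy in Taf1c, 151 bases downstream, is the lower-case cacgtg at the end of its line. The copies of Tcof1 lay downstream of its start and are not printed. The Rrn3 copy 39 bases upstream of the canonical start lies inside the annotated gene, which begins at base 13598376. The windows of Polr1a, Polr1c, Polr1e, Ubtf and Taf1a held none, which says only that these letters are not there. Binding was not measured.

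Total counts per library ranged from 5663491 to 9352109, and no member had fewer than 36 counts in any library. Levels are given as normalized CPM, in which counts are scaled by the library total and its TMM factor. TMM factors spanned 0.62 to 1.28 among the tumors and 1.01 to 1.20 elsewhere. Tumor 1 stood apart: its summed level of 12 proliferation genes was 158 CPM, against 2093 to 2271 in the other tumors, and its markers of mature granule neurons, Purkinje cells and myelin were the highest of all libraries. Tumor 3 had the lowest levels of these 3 marker lists among the tumors. Myc reached 152, 368, 1587 and 1016 CPM in tumors 1 to 4 and at most 45.7 CPM in any other library. Its counts sum the vector and the endogenous gene, and it was higher in the tumors than in P7 cerebella by 5.85 on the log2 scale (SE 0.75, adjusted p = 0.00194) and than in SHH MB by 4.31 (SE 0.69, adjusted p = 0.00428) in edgeR's quasi-likelihood test with Benjamini-Hochberg adjustment. Smarca4 had a log2 fold change of -0.30 (SE 0.28, adjusted p = 0.495) against P7 cerebella and of -1.39 (SE 0.28, adjusted p = 0.0157) against SHH MB in the same test, on counts of the whole gene rather than of the deleted exons. Of 7 GCP markers, 1 was called lower in the tumors than in P7 cerebella and 2 lower than in SHH MB, with medians of -0.57 and -1.19 on the log2 scale and single values from -3.16 to 0.11 and from -4.78 to 0.79. The lowest value in both was that of Barhl1 (adjusted p = 0.00023 and 6.31e-06).

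Of the 10 genes of the RNA polymerase I machinery, 6 had higher levels in MYC/SMARCA4 tumors than in P7 cerebella and 0 were lower, at an adjusted p of at most 0.05 in edgeR's quasi-likelihood test over all 10 libraries. Over all genes tested, 3.99% were called higher and 2.27% lower in this comparison. The 6 genes were Polr1a, Polr1b, Polr1c, Rrn3, Taf1d and Tcof1, and they include the genes of both large subunits. The remaining 4, Polr1e, Ubtf, Taf1a and Taf1c, did not pass. The fitted log2 fold changes were above 0 in 10 of 10 members, with a median of 1.42, while 48.1% of all genes tested were above 0 with a median of -0.05. Among the 13235 well-expressed genes the median was 0.39. In 4 of 10 members every tumor exceeded every cerebellum, which was so for 10.3% of all genes. DESeq2 and limma on the deposited log2 values called 6 and 4 members higher (6.41% and 1.49% of all genes).

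These calls rested on few libraries. Without tumor 1 the count was 8 (11.1% of all genes called higher), without tumor 2 it was 4 (1.77%), and without tumor 4 it was 2 (1.8%). Leaving out cerebellum 1, 2 or 3 left 1, 1 and 0 calls (0.227%, 0.1% and 0.124% of all genes), and a fit of only the 7 libraries compared called 0 members and 0.206% of all genes, while 8 members were higher at an unadjusted p of at most 0.05 with all 10 libraries, as were 15.3% of all genes. With library totals in place of TMM factors, 2 members were called (Polr1c and Taf1d, with 1.02% of all genes). The median log2 fold change of the 10 members stayed between 1.23 and 1.55 when any 1 library was left out. Single members moved over all alternative fits, for example from 1.35 to 2.39 for Polr1a and from -0.10 to 0.66 for Ubtf.

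Against SHH MB, 1 of 10 members was higher, Polr1c, and 0 were lower, where 2.43% of all genes were called higher and 2.26% lower. All 10 fitted values were again above 0, with a median of 0.72 against 0.01 over all genes tested. Among the well-expressed genes the median was 0.28. In 2 of 10 members, Polr1c and Rrn3, every tumor exceeded every SHH MB, against 7.83% of all genes. Without tumor 1, 5 members were called (Polr1a, Polr1b, Polr1c, Taf1d and Tcof1, with 5.91% of all genes). The call of Polr1c was lost, leaving 0 members, without tumor 2 (1.29% of all genes), tumor 4 (2.1%), or SHH MB 1, 2 or 3 (0.174%, 0.188% and 0.166%), and with library totals in place of TMM factors (1.44%). Both comparisons share the same 4 tumors.

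In all 10 members the mean CPM of SHH MB lay between those of the other groups. Against P7 cerebella 0 of 10 members were called in the fit over all 10 libraries by edgeR, where 0.177% of all genes were called higher and 0.0467% lower. In this fit 3 members were higher at an unadjusted p of at most 0.05 (5.16% of all genes), and DESeq2 called 1 (Taf1d, with 0.688% of all genes). When only the 6 libraries of these groups were fitted, 7 members were called higher (Polr1a, Polr1b, Polr1c, Rrn3, Taf1a, Taf1d and Tcof1), and so were 13.4% of all genes. In the same 7 members every SHH MB exceeded every cerebellum, against 17.8% of all genes. The median log2 fold change of the 10 members was 0.56, beside -0.09 over all genes and 0.09 among the well-expressed genes.

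**Figure D1:**
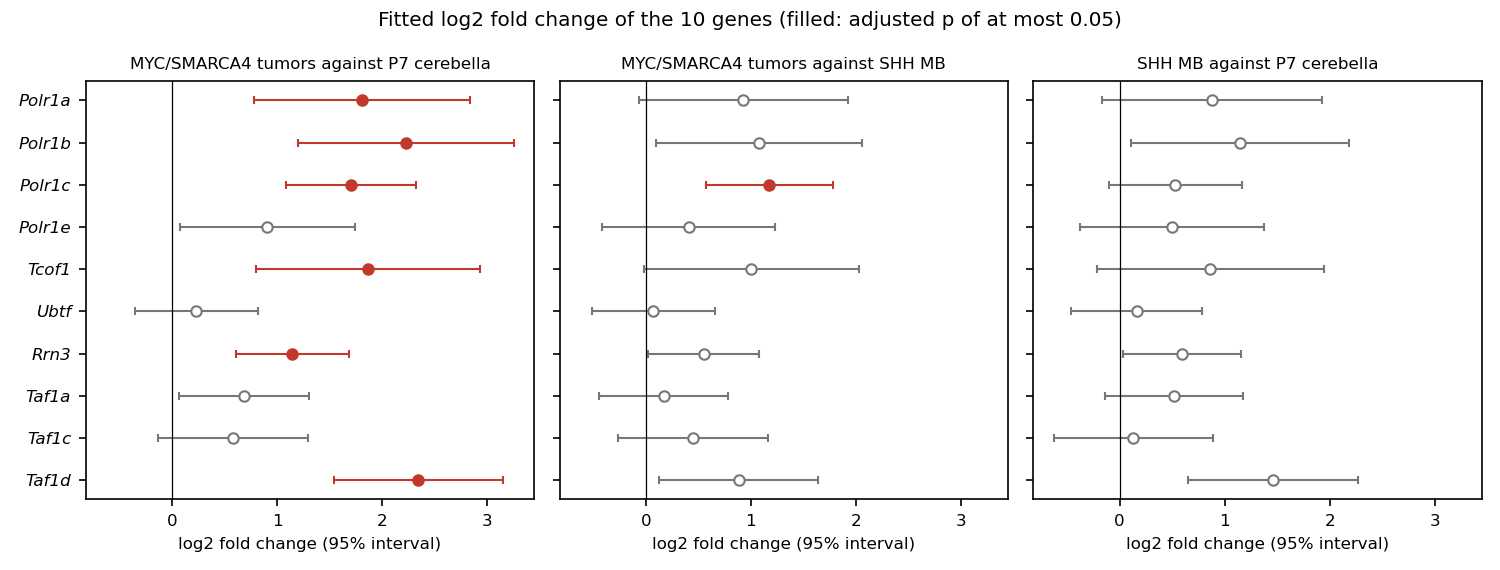
Fitted log2 fold changes of the 10 genes with 95% intervals from edgeR, in 3 panels for the comparisons of tumors with P7 cerebella, tumors with SHH MB, and SHH MB with P7 cerebella. Filled red points passed an adjusted p of 0.05, which 6, 1 and 0 genes did, and all points lie to the right of 0.

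Polr1a, on chr6:71886021-71961919, encodes the largest subunit, which forms the active site together with the product of Polr1b. Its level was 38.7, 197, 188 and 259 CPM in tumors 1 to 4, 49.1, 49.8 and 47.5 CPM in P7 cerebella and 82.8, 87.9 and 98.9 CPM in SHH MB. Tumor 1 was below all libraries of both other groups, and the other 3 tumors were above them all. Polr1a was 3.50-fold higher in tumors than in P7 cerebella (log2 1.81, SE 0.48, adjusted p = 0.0427). Against SHH MB the difference was 0.93 on the log2 scale (95% interval -0.07 to 1.92, adjusted p = 0.285). These and the following adjusted p are from edgeR's quasi-likelihood test, adjusted by Benjamini-Hochberg over all genes tested.

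Polr1b, on chr2:128942903-128970214, encodes the second catalytic subunit. It reached 22.8, 93.2, 81.3 and 150 CPM in the tumors, 22.4, 16.2 and 17.3 CPM in P7 cerebella and 41.4, 41.4 and 40.8 CPM in SHH MB. The 3 SHH MB were nearly alike, at 41.2 ± 0.351 CPM (SD, n = 3), and lay above all cerebella and above tumor 1. The increase over P7 cerebella was 4.67-fold (log2 2.22, SE 0.48, adjusted p = 0.0207), the largest among the 4 subunit genes. Against SHH MB it was 1.08 on the log2 scale (adjusted p = 0.208).

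Polr1c, on chr17:46554843-46559126, encodes a small subunit that RNA polymerase I shares with RNA polymerase III. Its level was 34.0, 61.9, 57.6 and 74.9 CPM in the tumors, 18.7, 17.2 and 16.7 CPM in P7 cerebella and 24.7, 26.9 and 24.4 CPM in SHH MB. The 3 groups did not overlap, and here tumor 1 too was above every other tissue. Polr1c was 3.26-fold higher than in P7 cerebella (log2 1.70, SE 0.29, adjusted p = 0.00818) and 2.26-fold higher than in SHH MB (log2 1.17, SE 0.28, adjusted p = 0.0324).

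Polr1e, on chr4:45018583-45038513, encodes PAF53, a subunit found in RNA polymerase I alone. It was the subunit gene with the fewest counts among the members, at 8.92, 20.7, 21.4 and 32.6 CPM in the tumors, 10.01, 12.4 and 11.1 CPM in P7 cerebella and 15.1, 21.0 and 11.4 CPM in SHH MB. The groups overlapped in all comparisons. The log2 fold change against P7 cerebella was 0.91 (95% interval 0.07 to 1.74, adjusted p = 0.166), and without tumor 1 it was 1.16 (adjusted p = 0.0128).

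Tcof1, on chr18:60946809-60982065, encodes treacle, a nucleolar protein that works with UBF on the rRNA genes. Its level was 30.7, 122, 168 and 222 CPM in the tumors, 41.0, 34.3 and 36.5 CPM in P7 cerebella and 74.8, 57.4 and 70.9 CPM in SHH MB. Tumor 1 was again the lowest of all 10 libraries and the other 3 tumors the highest. The increase over P7 cerebella was 3.64-fold (log2 1.87, SE 0.49, adjusted p = 0.0428), just inside the threshold as for Polr1a. Both calls were lost in limma on the deposited values.

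**Figure D2:**
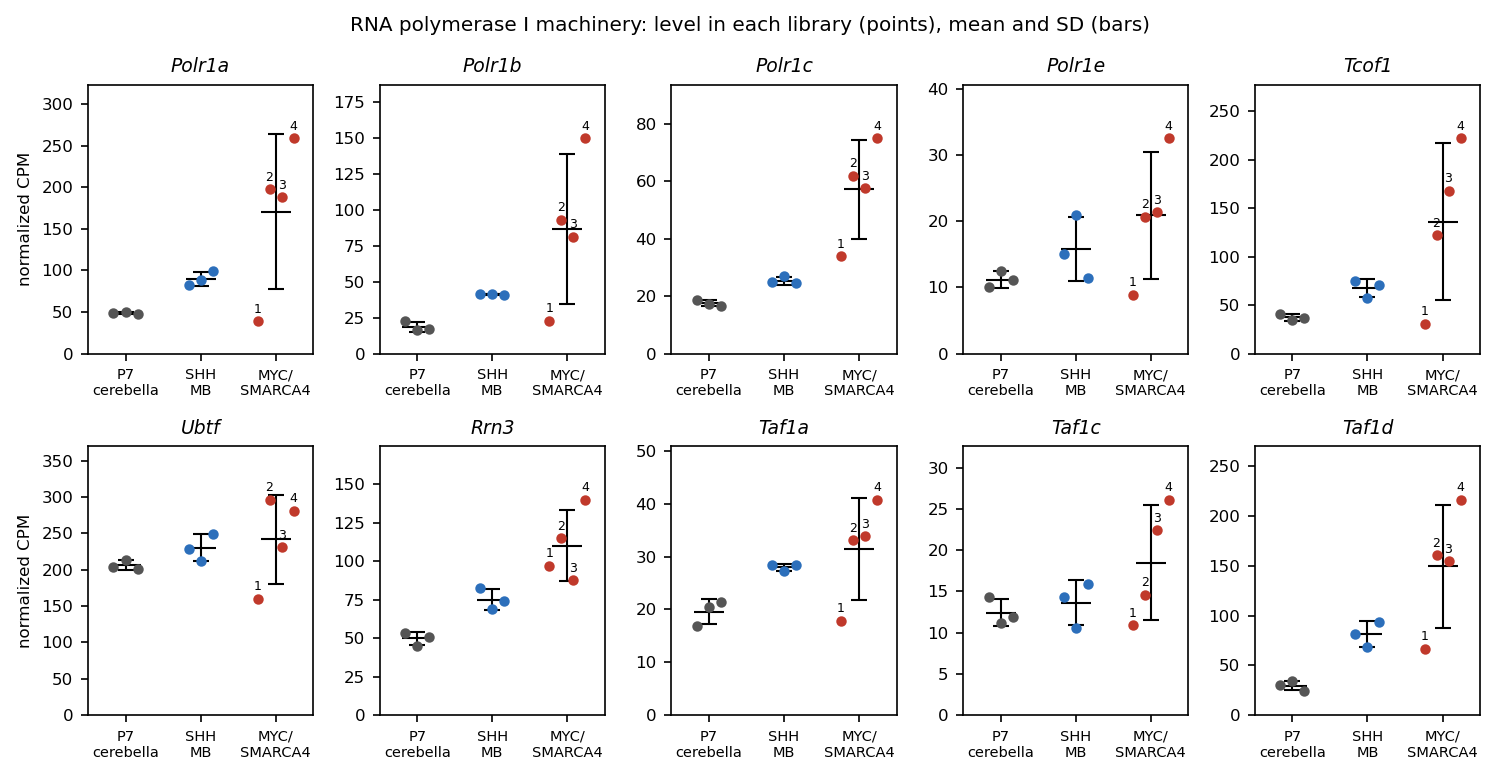
Normalized CPM of each of the 10 genes in every library, with the tumor number beside each red point and bars for the mean and SD of a group. Tumor 1 lies lowest among the tumors in 9 of 10 genes and tumor 4 highest in 9 of 10, and the 3 cerebella and 3 SHH MB lie close together for most genes.

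Ubtf, on chr11:102195386-102210568, encodes UBF, which keeps active ribosomal DNA open. It stood at 160, 296, 231 and 281 CPM in the tumors, 204, 213 and 200 CPM in P7 cerebella and 229, 212 and 249 CPM in SHH MB. Group means of 242 ± 61.3 (SD, n = 4), 206 ± 6.71 (SD, n = 3) and 230 ± 18.3 CPM (SD, n = 3) differed by less than the spread among the tumors. The log2 fold change was 0.23 against P7 cerebella (95% interval -0.35 to 0.82, adjusted p = 0.583) and 0.07 against SHH MB (95% interval -0.51 to 0.66, adjusted p = 0.908). Its sign turned with the scaling, to -0.10 and -0.15 when library totals were used without scaling factors.

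Rrn3, on chr16:13598376-13635974, encodes the factor that makes the polymerase competent to start. It reached 97.2, 115, 87.6 and 140 CPM in the tumors, 53.4, 44.9 and 50.9 CPM in P7 cerebella and 82.6, 68.7 and 73.9 CPM in SHH MB. The 3 groups did not overlap, and Rrn3 was the only member in which tumor 1 was not the lowest tumor. Rrn3 was 2.21-fold higher than in P7 cerebella (log2 1.14, SE 0.25, adjusted p = 0.0219). Against SHH MB the log2 fold change was 0.55 (SE 0.24, adjusted p = 0.233), which did not pass.

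Taf1a, Taf1c and Taf1d encode subunits of SL1, and 1 of the 3 passed the test against P7 cerebella. Taf1d, on chr9:15217502-15228293, was at 66.7, 161, 155 and 216 CPM in the tumors, 30.1, 33.8 and 24.4 CPM in P7 cerebella and 81.7, 67.9 and 93.9 CPM in SHH MB. Every tumor and every SHH MB was above every cerebellum, and tumor 1 was just below the lowest SHH MB. With a 5.08-fold increase over P7 cerebella (log2 2.34, SE 0.37, adjusted p = 0.00613) it had the largest fold change of the 10 members, and against SHH MB its log2 fold change was 0.88 (adjusted p = 0.18).

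Taf1a, on chr1:183170286-183193234, stood at 17.8, 33.1, 33.9 and 40.74 CPM in the tumors, 16.9, 20.5 and 21.4 CPM in P7 cerebella and 28.3, 27.2 and 28.4 CPM in SHH MB. Tumor 1 lay within the cerebella and the other tumors above all. The log2 fold change against P7 cerebella was 0.68 (95% interval 0.06 to 1.30, adjusted p = 0.161), and without tumor 1 it was 0.88 (adjusted p = 0.00936). Taf1c, on chr8:120324585-120331986, was at 10.9, 14.6, 22.4 and 26.1 CPM in the tumors, 14.3, 11.1 and 11.8 CPM in P7 cerebella and 14.3, 10.6 and 15.9 CPM in SHH MB. Tumors 1 and 2 lay within the range of SHH MB, and the log2 fold change against P7 cerebella was 0.58 (95% interval -0.13 to 1.29, adjusted p = 0.277).

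Reads of some members can be shared with overlapping genes, since the strand setting of the counting is not given in the sources used here. In the GENCODE annotation, 7 of 10 members share exon bases with another gene. Taf1c shares 610 bases with Dnaaf1, Taf1d 235 with 4931406C07Rik and 85 with Cep295, Polr1c 128 with Yipf3, and Polr1e 36 with Fbxo10, all on the opposite strand. Polr1a, Polr1b and Rrn3 share exon bases with lncRNA genes on the opposite strand. The annotated exons of Taf1d also cover 8 snoRNA genes. The count files hold 6 entries for snoRNAs at this locus, of which 3 had counts, with sums of 186, 87, 65 and 120 in tumors 1 to 4, 35, 9 and 8 in P7 cerebella and 29, 61 and 30 in SHH MB. Whether snoRNA reads were also part of the Taf1d counts was not tested. Ubtf, Taf1a and Tcof1 shared no exon bases with another gene.

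Per kilobase of the canonical transcript, levels can be compared between genes. In P7 cerebella, Ubtf led among the members other than Taf1d with 43.9 ± 1.43 CPM per kb (SD, n = 3), followed by Rrn3 (13.8 ± 1.22), Polr1c (11.99 ± 0.707), Tcof1 (7.97 ± 0.728), Polr1a (5.28 ± 0.127) and Taf1a (4.999 ± 0.615). Taf1c (3.81 ± 0.510), Polr1e (3.75 ± 0.408) and Polr1b (3.26 ± 0.581) came last. Polr1a and Taf1a did not differ beyond their spread, nor did neighbours among the last 3. In the tumors, Ubtf at 51.6 ± 13.1 CPM per kb (SD, n = 4) was followed by Polr1c (39.03 ± 11.7), Rrn3 (30.5 ± 6.38), Tcof1 (29.0 ± 17.3), Polr1a (18.5 ± 10.1), Polr1b (15.2 ± 9.12), Taf1a (8.01 ± 2.46), Polr1e (7.00 ± 3.23) and Taf1c (5.67 ± 2.14), and neighbours in this order differed by less than the larger of their SDs. In SHH MB Ubtf at 49.1 ± 3.90 CPM per kb (SD, n = 3) was followed by Rrn3 (20.8 ± 1.95), Polr1c (17.3 ± 0.907), Tcof1 (14.5 ± 1.96), Polr1a (9.72 ± 0.889), Polr1b (7.21 ± 0.0614), Taf1a (7.14 ± 0.169), Polr1e (5.29 ± 1.62) and Taf1c (4.17 ± 0.834). Polr1b and Taf1a, and Polr1e and Taf1c, did not differ beyond their spread there. The order depends on which length is used. Per kilobase of all annotated exons, Ubtf led all 10 members in every group. In SHH MB Tcof1 (12.5 ± 1.69 CPM per kb) then stood above Polr1c (10.3 ± 0.540) and Rrn3 (10.3 ± 0.961). In P7 cerebella Rrn3 (6.80 ± 0.602) stood below Polr1c (7.14 ± 0.421) and Tcof1 (6.88 ± 0.628), by less than their SDs. Polr1e was last in all 3 groups. The orders per kilobase of canonical transcript leave out Taf1d, whose place moved as well. Its canonical transcript of 1055 bases gave 142 ± 58.6 CPM per kb in the tumors and 76.9 ± 12.3 in SHH MB, above Ubtf. In P7 cerebella it gave 27.9 ± 4.51, below Ubtf. All its annotated exons of 8980 bases gave 16.7 ± 6.89 in the tumors, below the 30.9 ± 7.82 of Ubtf on that scale.

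A ratio to Ubtf within the same library does not depend on scaling factors. The count of Polr1c was 21.2%, 20.9%, 25.0% and 26.6% of that of Ubtf in tumors 1 to 4, 9.17%, 8.09% and 8.33% in P7 cerebella and 10.8%, 12.6% and 9.81% in SHH MB. All 4 tumors were alike on this measure, tumor 1 included. For Taf1d the ratio was 41.6%, 54.3%, 67.1% and 77.0% in the tumors, 12.2% to 15.9% in P7 cerebella and 31.9% to 37.7% in SHH MB. For Rrn3 it was 60.7%, 38.9%, 37.9% and 49.8% in the tumors, 21.0% to 26.2% in P7 cerebella and 29.7% to 36.1% in SHH MB. In these 3 of the 9 other members all groups lay apart, with tumors highest and cerebella lowest, and the same was so for 0.911% of all other genes tested. The tumors exceeded the cerebella without overlap in 6 of 9 members (7.33% of all other genes) and SHH MB exceeded them in 7 of 9 (11.9%). These ratios show unequal change against Ubtf and carry no test.

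**Figure D3:**
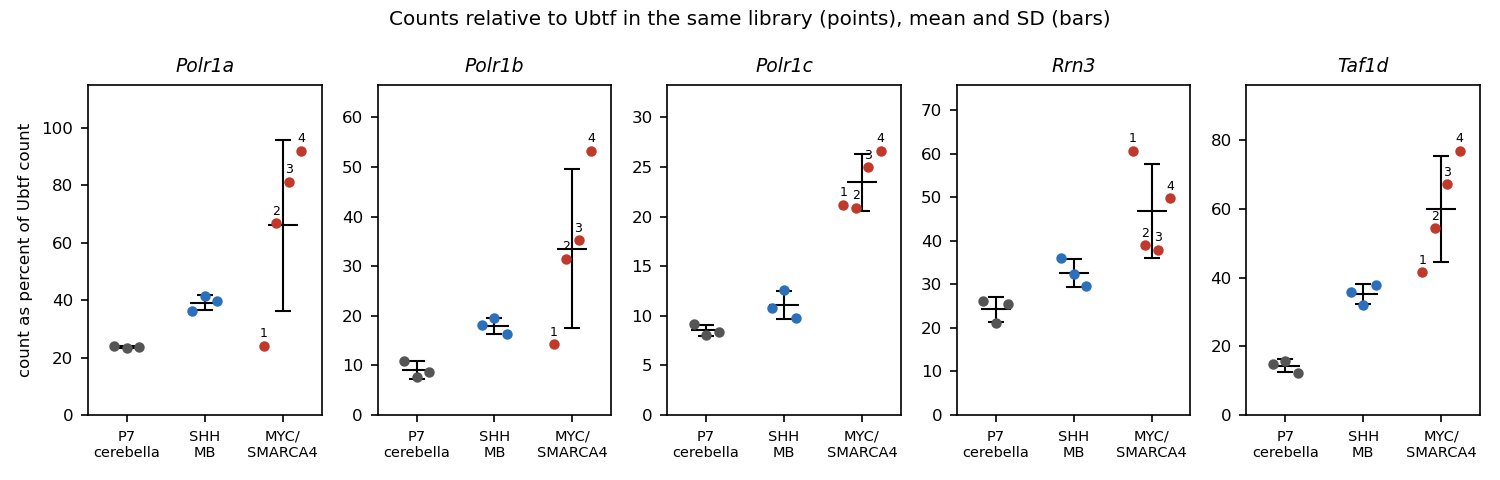
Counts of 5 genes as a percentage of the Ubtf count in the same library, with tumor numbers beside the red points and bars for the mean and SD of a group. Polr1c, Rrn3 and Taf1d separate the 3 groups, while tumor 1 lies near the cerebella for Polr1a (24.1%) and between cerebella and SHH MB for Polr1b (14.2%).

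Averaged over the 10 members, log2 CPM was 5.07, 6.28, 6.28 and 6.74 in tumors 1 to 4, 4.94, 4.88 and 4.85 in P7 cerebella and 5.58, 5.50 and 5.59 in SHH MB. Tumors 2 to 4 were above all SHH MB, and tumor 1 was between the cerebella and SHH MB. Tumor 1 exceeded all cerebella in 4 of 10 members, and tumors 2, 3 and 4 did so in 10 of 10 each. Over all genes tested the shares were 38.3%, 37.1%, 36% and 35.8% in tumors 1 to 4. On raw totals, the members took 0.0301% of the counts of tumor 1, less than the 0.0502% to 0.0517% in the cerebella, and 0.0892% to 0.132% in the other tumors.

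Markers of other cells also differed between these libraries. The 7 markers of mature granule neurons summed to 7275, 2152, 257 and 1329 CPM in tumors 1 to 4, 743 to 838 CPM in P7 cerebella and 327 to 431 CPM in SHH MB. The 6 Purkinje cell markers summed to 338 to 11075 CPM in the tumors, 1347 to 1447 CPM in P7 cerebella and 351 to 614 CPM in SHH MB, and the 7 myelin markers to 112 to 4087, 931 to 1111 and 113 to 377 CPM. For all 3 lists tumor 1 was highest and tumor 3 lowest among the tumors. Of the mature granule neuron markers 3 of 7 were called higher than in P7 cerebella, led by Cbln3 (log2 4.28, adjusted p = 0.0239) and Gabra6 (log2 3.41, adjusted p = 0.0278), and 4 of 7 higher than in SHH MB (Cbln3 6.10, adjusted p = 0.00666, and Gabra6 5.84, adjusted p = 0.00389). Of the 7 astrocyte markers 3 were lower than in P7 cerebella, Aqp4 by -3.01 and Aldh1l1 by -2.22 on the log2 scale among them (adjusted p = 0.0259 and 0.00666). Fitted values were below 0 in 5 of the 7 and above 0 in 2, up to 1.17. Against SHH MB 1 of 7 was called lower. The 7 astrocyte markers summed to 484, 2551, 497 and 1902 CPM in tumors 1 to 4. Their sums were 2104 to 2170 CPM in P7 cerebella and 1712 to 2005 CPM in SHH MB. By this sum tumor 2 was above every cerebellum. Its mean log2 CPM of the same markers, 7.35, was below that of every cerebellum, 7.58 to 7.60. Of the Purkinje cell markers 0 were called higher by edgeR against P7 cerebella (2 at an unadjusted p of at most 0.05) and 2 of 6 against SHH MB, and of the myelin markers 0 (1 unadjusted) and 1 of 7. Of 7 microglia markers 0 were called in either comparison (2 unadjusted in each), and of 6 endothelium markers 0 against P7 cerebella (2 unadjusted) and 1 lower against SHH MB. Over all 29952 genes tested, 7558 reached an unadjusted p of at most 0.05 against P7 cerebella and 5939 against SHH MB. No marker was at 0 in any library. Leaving out tumor 1 gave the values above, and the part of these cells in the members' levels was otherwise not tested.

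Leaving out both tumors 1 and 3, chosen after their values were seen, put 10 of 10 members above P7 cerebella (25.1% of all genes) and 7 of 10 above SHH MB (17.9%). The fold changes of Polr1b and Taf1d against P7 cerebella were then 2.87 and 2.84 on the log2 scale, and that of Ubtf was 0.66 (adjusted p = 0.00539). Ubtf was lowest in the tumors left out (160 and 231 CPM) and highest in those kept (296 and 281 CPM). This choice of tumors therefore raises its fold change by itself, and its p cannot be read as a test.

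**Figure D4:**
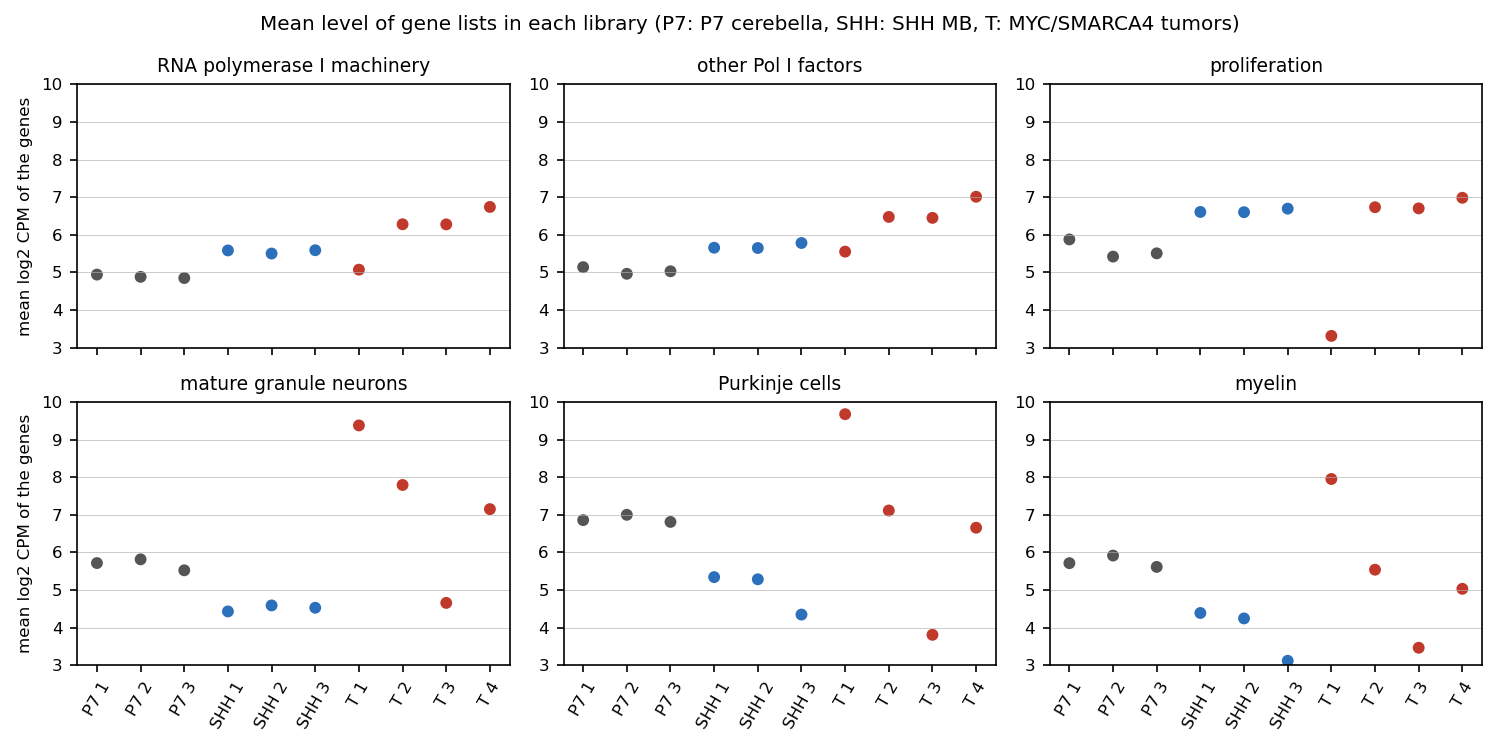
Mean log2 CPM of the genes of 6 lists in each library, in gray for P7 cerebella, blue for SHH MB and red for MYC/SMARCA4 tumors (T 1 to T 4). Tumor 1 has the lowest mean of proliferation genes (3.31) and the highest means of neuronal and myelin markers, while its mean of the RNA polymerase I members (5.07) lies between those of cerebella and SHH MB.

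The rest of the RNA polymerase I pathway was followed in lists of other genes. Of the other 4 subunit genes, 2 were higher in tumors than in P7 cerebella, Polr1f (log2 1.48, SE 0.29, adjusted p = 0.0141) and Polr1g (log2 1.14, SE 0.30, adjusted p = 0.0421), listed in the files as Twistnb and Cd3eap. The median of these 4 was 0.79. Of 15 further factors, which include the rest of SL1, the terminator Ttf1, nucleolar cofactors and the t-UTP proteins that link transcription to processing, 10 were higher and 0 lower, with a median of 1.78. The largest increases were those of Npm1, a nucleolar chaperone (log2 2.48, SE 0.48, adjusted p = 0.0136), and Ncl, which encodes nucleolin (log2 2.23, SE 0.36, adjusted p = 0.00633). Of 9 genes that silence ribosomal DNA repeats, 0 were called in either direction by edgeR, with a median of 0.67 and 5 genes at an unadjusted p of at most 0.05. That unadjusted p was reached by 7558 of all 29952 genes tested. Against SHH MB 0 of these 28 genes were called by edgeR. An unadjusted p of at most 0.05 was reached by 13, of which 12 were higher in the tumors, and by 5939 of all 29952 genes tested.

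The other polymerases give a yardstick. Of 5 subunits common to all 3 polymerases 2 were higher than in P7 cerebella, Polr2h (log2 1.22, adjusted p = 0.044) and Polr2e (log2 1.13, adjusted p = 0.0381), with a median of 0.76. Of 7 genes of RNA polymerase II 2 were higher, Polr2a (log2 1.42, adjusted p = 0.0134) and Polr2b (log2 0.94, adjusted p = 0.041), with a median of 0.52. Of 10 genes of RNA polymerase III, which makes 5S rRNA and tRNAs, 4 were higher, led by Polr3g (log2 2.02, adjusted p = 0.0256) and Polr3e (log2 1.39, adjusted p = 0.0105), with a median of 0.91. Of 10 factors of RNA polymerase III 0 were called by edgeR (median 0.57, 4 at an unadjusted p of at most 0.05), and the same held for 12 proliferation genes (median 0.93, 1 at an unadjusted p of at most 0.05). Of all 29952 genes tested, 7558 reached that unadjusted p. Against SHH MB, 1 gene of these lists was called, Polr3e (log2 1.05, adjusted p = 0.0298), with medians of 1.01 for the shared subunits (4 of 5 higher at an unadjusted p of at most 0.05), 0.37 for RNA polymerase II (1 of 7), 0.53 and 0.15 for the subunits and factors of RNA polymerase III (5 and 1 of 10) and -0.13 for the proliferation genes (0 of 12). The median of the members was 0.72 there. Between SHH MB and P7 cerebella edgeR called no gene of these lists in the fit over 10 libraries. An unadjusted p of at most 0.05 was reached by 8 of the 28 other Pol I genes and by 2635 of all 29952 genes tested. No difference between lists was tested.

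**Figure D5:**
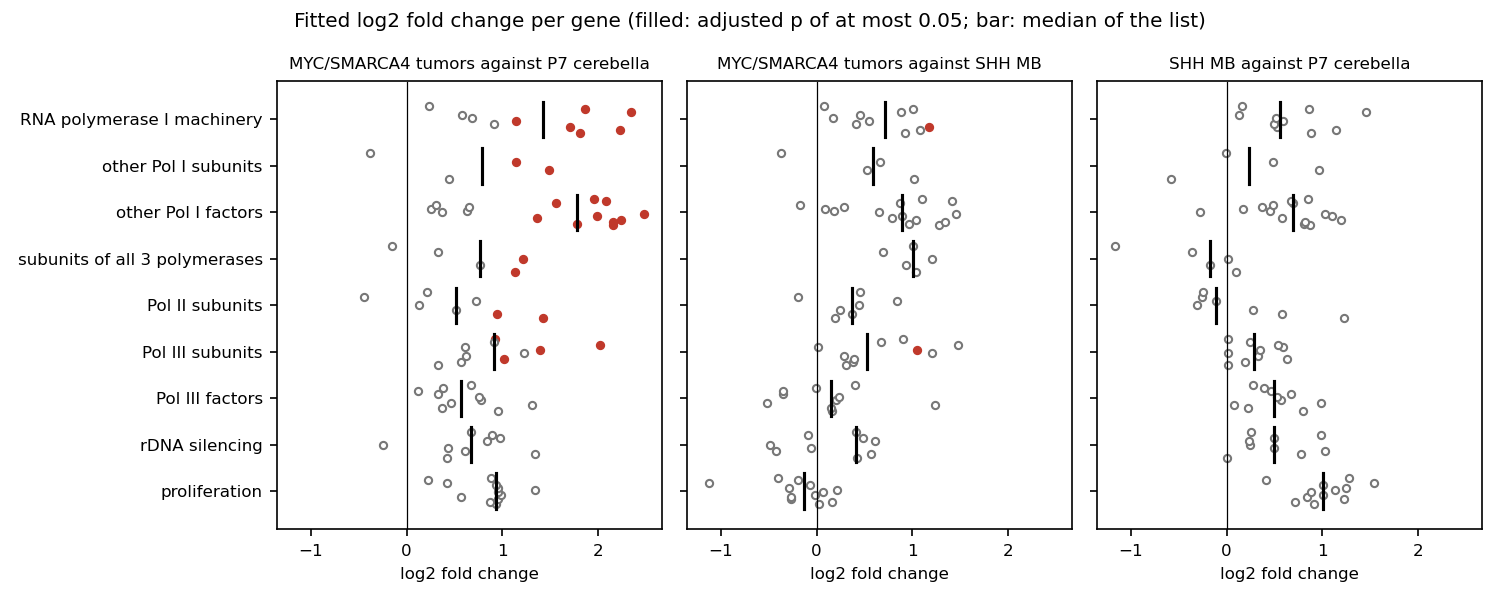
Fitted log2 fold change of every gene of 9 lists in the 3 comparisons, with filled red points at an adjusted p of at most 0.05 and a black bar at the median of each list. The medians of the RNA polymerase I members (1.42) and of the other Pol I factors (1.78) lie furthest to the right against P7 cerebella.

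Across the 10 libraries, the members varied together to different degrees. The correlation of log2 CPM with the mean of the other 9 members was highest for Polr1b (r = 0.99), Polr1a (r = 0.97) and Tcof1 (r = 0.97), and lowest for Ubtf (r = 0.77), Taf1c (r = 0.80) and Rrn3 (r = 0.82). Among 13225 other genes with a mean log2 CPM of at least 3, the 5 most like the mean of the members over the 10 libraries were Atic, Ipo5, Ddx21, Eprs and Ipo7, with r between 0.991 and 0.994. Atic encodes an enzyme of purine synthesis, Ipo5 and Ipo7 encode nuclear import receptors, Ddx21 a nucleolar RNA helicase and Eprs a tRNA synthetase. Atic, for example, was at 26.5, 87.1, 89.7 and 138 CPM in the tumors, 21.8 to 24.9 CPM in P7 cerebella and 38.4 to 44.9 CPM in SHH MB, which is the order seen in the members. These correlations describe 10 libraries that fall into groups and share their scaling, and carry no test.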

How the data were processed

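The authors prepared CORALL libraries from rRNA-depleted RNA of FFPE tissue, trimmed reads with Trimmomatic 0.38.1, aligned them to GRCm39 with STAR 2.7.8a and counted them with featureCounts 2.0.1. The gene annotation and strand setting of the counting are not given in the sources used here. The count of reads on each gene was deposited as a whole number, not normalized. A second deposited table holds log2 values from the variance-stabilizing transformation of DESeq2, used here only as an alternative for 46123 genes. Groups came from the labels, and 0 columns were left without a sample. Nothing in the labels says that replicates were separate litters, so p-values measure the spread between these samples.

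Counts were tested with edgeR 4.0.16 (quasi-likelihood, R 4.3.3) with a mean per group over all 10 libraries, TMM factors and filterByExpr by group. P-values were adjusted by Benjamini-Hochberg over 29952 genes, and genes were called at an adjusted p of at most 0.05. Levels on the log2 scale used a prior count of 2, which understates differences of low genes. SE were taken as the absolute log2 fold change divided by the square root of the F statistic of the same fit. The 95% intervals were built on these SE. Well-expressed genes had a mean log2 CPM of at least 3. Alternatives were DESeq2 1.42.0, limma 3.58.1 on the deposited log2 values, other scaling, filters, designs and thresholds, and each library left out in turn. Positions and windows around start sites came from the GRCm39 genome with GENCODE, with both strands searched. Intervals cover counting error and spread between libraries only.

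The members and the lists were chosen with earlier results of these data known. Genes named in the text are the 10 members, Myc and Smarca4, up to 2 genes with the largest increase and 2 with the largest decrease among the calls of each list, and the 5 genes most like the mean of the members. Other genes named with a list, such as the overlapping genes, are there for their position.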

Additional observations from a re-analysis of the deposited data

Results flagged for a closer look

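For each member and for their mean, 11 quantities in all, the highest and lowest of the 4 tumors were compared with the rest by Dixon's criterion on log2 CPM. Polr1a in tumor 1 was the 1 value that passed: it stood at 5.28, with the other tumors between 7.55 and 8.02, a gap of 0.831 of the whole range, just past the 95% critical value for 4 samples. Chance alone flags about 1 in 20 groups. Tumor 1 was also the lowest tumor in 9 of 10 members, without passing the criterion in the others.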

How the results depend on the processing

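For tumors against P7 cerebella, the count of 6 members called became 2 with library totals in place of TMM factors (added after seeing the data), 0 in the fit of only the groups compared, 2 or 0 when a log2 change of 1.5 or 2.5 and an adjusted p of 0.01 were required (0.26% and 0.0901% of all genes), and 10 without tumors 1 and 3 (added after seeing the data). Against SHH MB the count of 1 became 0 without a filter on low counts (1.68% of all genes called higher), with library totals (1.44%), in the fit of only the groups compared (0.337%), in limma (0.839%) and at log2 thresholds of 1.5 and 2.5 (0.294% and 0.124%), 4 at an unadjusted p of at most 0.05 (12.7%), and 7 without tumors 1 and 3. For SHH MB against P7 cerebella the count of 0 became 7 in the fit of only these groups, 1 in DESeq2 and 3 unadjusted. With 1 library left out, counts ranged from 0 to 8, from 0 to 5 and from 0 to 0 in the 3 comparisons, and medians from 1.23 to 1.55, from 0.51 to 0.88 and from 0.57 to 0.68. The median for SHH MB against P7 cerebella moved to 0.61 without a filter, 0.49 with at least 10 counts in every library and 0.45 with library totals. Library totals moved the median of all genes by -0.37, -0.23 and -0.11. The causes were not tested.

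Deviations of same-numbered libraries from their group means had correlations from -0.27 to 0.16. With 3 or 4 libraries per group, this cannot show whether the numbers pair them. With the replicate block, 2, 0 and 0 members were called in the 3 comparisons, beside 0.551%, 0.771% and 0.0534% of all genes called higher. Under the block the log2 fold change against SHH MB was -0.037 for Ubtf and -0.029 for Taf1a. With library totals it was -0.15 for Ubtf and -0.023 for Taf1a against SHH MB, and -0.10 for Ubtf against P7 cerebella. With at least 10 counts in every library Ubtf was at -0.014 against P7 cerebella and -0.10 against SHH MB, and with 1 tumor or SHH MB left out it was between -0.034 and 0.21 against SHH MB, below 0 without tumor 2, 3 or 4. Of 520 values of single members under alternatives, 436 kept their direction and side of the threshold, 50 lost the call, 24 gained one and 10 turned sign.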
